A study of Mus musculus with 9 samples.

Results

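The 10 genes described here code for the receptors, ligands and target transcription factors of the Notch pathway. They were chosen by name, and all 10 were found among the 24186 genes of the count table. The receptors were Notch1, Notch2, Notch3 and Notch4, the ligands were Jag1 and Dll1, and the target genes were Hes1, Hey1, Hey2 and Heyl. Each name belonged to a single Ensembl identifier. Of the 10, 9 had enough reads to be tested, and Heyl, with 2 reads in all 9 libraries together, did not.

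Notch receptors are single-pass membrane proteins that are bound by ligands on a neighbouring cell. Binding exposes the receptor to cleavage by an ADAM protease and then by γ-secretase, and the freed intracellular domain joins the DNA-binding protein RBPJ and a Mastermind coactivator at target genes. Hes and Hey genes code for basic helix-loop-helix repressors and are the usual readouts of this step. In mouse bone marrow stroma, Notch signalling is known for holding mesenchymal progenitors back from becoming osteoblasts. Notch3 is known for its role in smooth muscle cells and pericytes, and Notch4 for its expression in endothelium.

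Poly(A) RNA was sequenced in 9 libraries of marrow stromal cells, isolated from the femora and tibiae of adult C57Bl/6 mice with the irtTA-GBD*-TAg transgene, which makes large T antigen when dexamethasone and doxycycline are present. All cells had been immortalised in this way, cloning was part of the protocol, and both inducers were withheld for 3 days before RNA was taken. The groups were adipogenic progenitors treated with interferon-γ (IFNγ, 10 ng/ml, 3 days), progenitors with osteogenic potential, and untreated adipogenic progenitors, with 3 libraries each, numbered 4, 5 and 6. The series design calls them biological replicates, without saying whether they are separate clones, cultures or mice. P values therefore measure only the spread between these libraries.

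Libraries held 27440089 to 39251602 counts, and the most that a gene without a read could have had, at 3 counts in a library, was 0.0749 to 0.113 CPM. CPM are the usual depth-scaled counts, here with TMM scaling of the libraries. Among the checks of the labels, the interferon-induced transcription factor gene Irf1 stood at 634 to 883 CPM in treated libraries, against 45.7 to 64.5 in untreated ones. The osteoblast transcription factor gene Sp7 stood at 50.6 to 129.6 CPM in osteogenic libraries and at 0.0845 to 0.313 CPM in untreated adipogenic ones. The mature fat cell genes Adipoq and Plin1 were under 1 CPM in every library. The other 4 of 6 fat cell markers were detected in all libraries, and the 6 summed to 87.0 to 333 CPM in treated, 37.1 to 77.9 CPM in osteogenic and 74.9 to 646 CPM in untreated libraries. Of the 4, only the lipoprotein lipase gene Lpl passed as lower in osteogenic than in untreated libraries (-5.54 ± 1.24 on the log2 scale, edgeR adjusted p = 0.0435). Pparg (-1.97, adjusted p = 0.12), Cebpa (-0.13, adjusted p = 0.921) and Fabp4 (-2.13, adjusted p = 0.314) did not pass. The 9 endothelial markers in the table summed to 24.5 to 61.4 CPM in treated, 3.25 to 4.81 CPM in osteogenic and 12.6 to 20.2 CPM in untreated libraries. Of them, Pecam1, Cdh5, Tek, Tie1, Emcn and Esam were under 1 CPM in every library. Kdr stood at 21.5 to 53.9 CPM in treated, 1.35 to 2.39 CPM in osteogenic and 8.65 to 17.4 CPM in untreated libraries. Kdr was lower and Erg higher in osteogenic than in untreated libraries (edgeR adjusted p = 0.0146 for Kdr and 0.0125 for Erg). The 8 blood and macrophage markers summed to 12.8 to 20.3 CPM in treated, 10.1 to 13.9 CPM in osteogenic and 12.9 to 30.6 CPM in untreated libraries, and none of the 5 tested passed in any comparison. Ptprc, Csf1r, Itgam and Spi1 were under 1 CPM in every library, while Cd68 and Cd14 were at 3.48 CPM or more in every library and reached 18.6 CPM for Cd68 and 16.4 CPM for Cd14. The 8 stromal markers summed to 6507 to 7507 CPM in treated, 51565 to 73866 CPM in osteogenic and 12414 to 21384 CPM in untreated libraries. Thy1 and Lepr were under 1 CPM in every library. Of 7 tested, Col1a1 and Col1a2 passed as higher in osteogenic than in untreated libraries. Eng stood at 60.2 CPM in osteogenic replicate 5, against 2.78 and 2.77 CPM in osteogenic replicates 4 and 6.

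RefSeq promoter windows (build GRCm38.p6, 250 bases before to 50 after the start) were available for 7 of the 10 members, in 8 windows. Hes1, Hey1 and Heyl had no window, so Hey2 was the only target gene searched. The Hey2 window is shown because it was the only available member window with matches to the RBPJ core. The core TGGGAA was searched on both strands, and 25.6% of all 32851 windows held it. Capitals mark the core matches.
Hey2, chr10:30842734-30843033, minus strand: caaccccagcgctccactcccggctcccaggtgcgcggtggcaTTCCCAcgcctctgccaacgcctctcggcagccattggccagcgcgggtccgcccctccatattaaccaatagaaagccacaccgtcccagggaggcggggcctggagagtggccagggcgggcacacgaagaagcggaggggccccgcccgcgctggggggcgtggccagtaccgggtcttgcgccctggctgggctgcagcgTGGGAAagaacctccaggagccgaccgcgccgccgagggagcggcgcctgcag
Counted from the start as base 1, with no base 0, the Hey2 matches began at base -207, on the strand opposite to the one printed, and at base -3. Both were part of the longer form CGTGGGAA, which was searched after the core matches had been seen. That form occurred in 0.734% of all windows, and 4 windows, or 0.0122%, held it at least 2 times. These matches are descriptions of sequence, and binding was not measured.

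Per length of transcript, Notch3 and Notch2 had the highest means of the 10 genes in every group. In untreated adipogenic libraries the Notch3 level was 54.2 ± 36.0 CPM per kilobase of exon (SD, n = 3), followed by Notch2 at 21.9 ± 7.02, Hes1 at 11.5 ± 4.55 and Notch1 at 7.84 ± 2.07. Jag1 followed at 4.24 ± 3.49, Hey2 at 2.32 ± 1.08, Dll1 at 0.815 ± 0.489, Hey1 at 0.197 ± 0.0697 and Notch4 at 0.0835 ± 0.0170. Libraries of neighbours in this order overlapped, except between Notch2 and Hes1, Dll1 and Hey1, and Hey1 and Notch4. In osteogenic libraries the order was Notch3 (31.4 ± 8.51 CPM per kilobase), Notch2 (28.8 ± 3.50), Hes1 (15.5 ± 4.94), Notch1 (9.32 ± 2.52) and Jag1 (5.24 ± 1.71). Hey2 (1.08 ± 0.430), Hey1 (0.868 ± 0.299), Dll1 (0.228 ± 0.0647) and Notch4 (0.0748 ± 0.050) came after them. Here neighbours overlapped for Notch3 and Notch2, Notch1 and Jag1, and Hey2 and Hey1, and not for the others. In IFNγ-treated libraries Notch3 stood at 27.5 ± 21.4 CPM per kilobase, Notch2 at 18.3 ± 3.37, Notch1 at 9.96 ± 3.65 and Hes1 at 4.93 ± 2.52, so that Notch1 preceded Hes1, with overlapping libraries. Jag1 was at 1.74 ± 0.857, Hey2 at 1.30 ± 0.744, Dll1 at 1.17 ± 0.558, Notch4 at 0.120 ± 0.0579 and Hey1 at 0.104 ± 0.0778 CPM per kilobase. In this group the steps between Notch2 and Notch1, Hes1 and Jag1, and Dll1 and Notch4 had no overlap. Heyl had 1 read in osteogenic replicate 6 and 1 in untreated replicate 6, and none elsewhere.

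**Figure D1:**
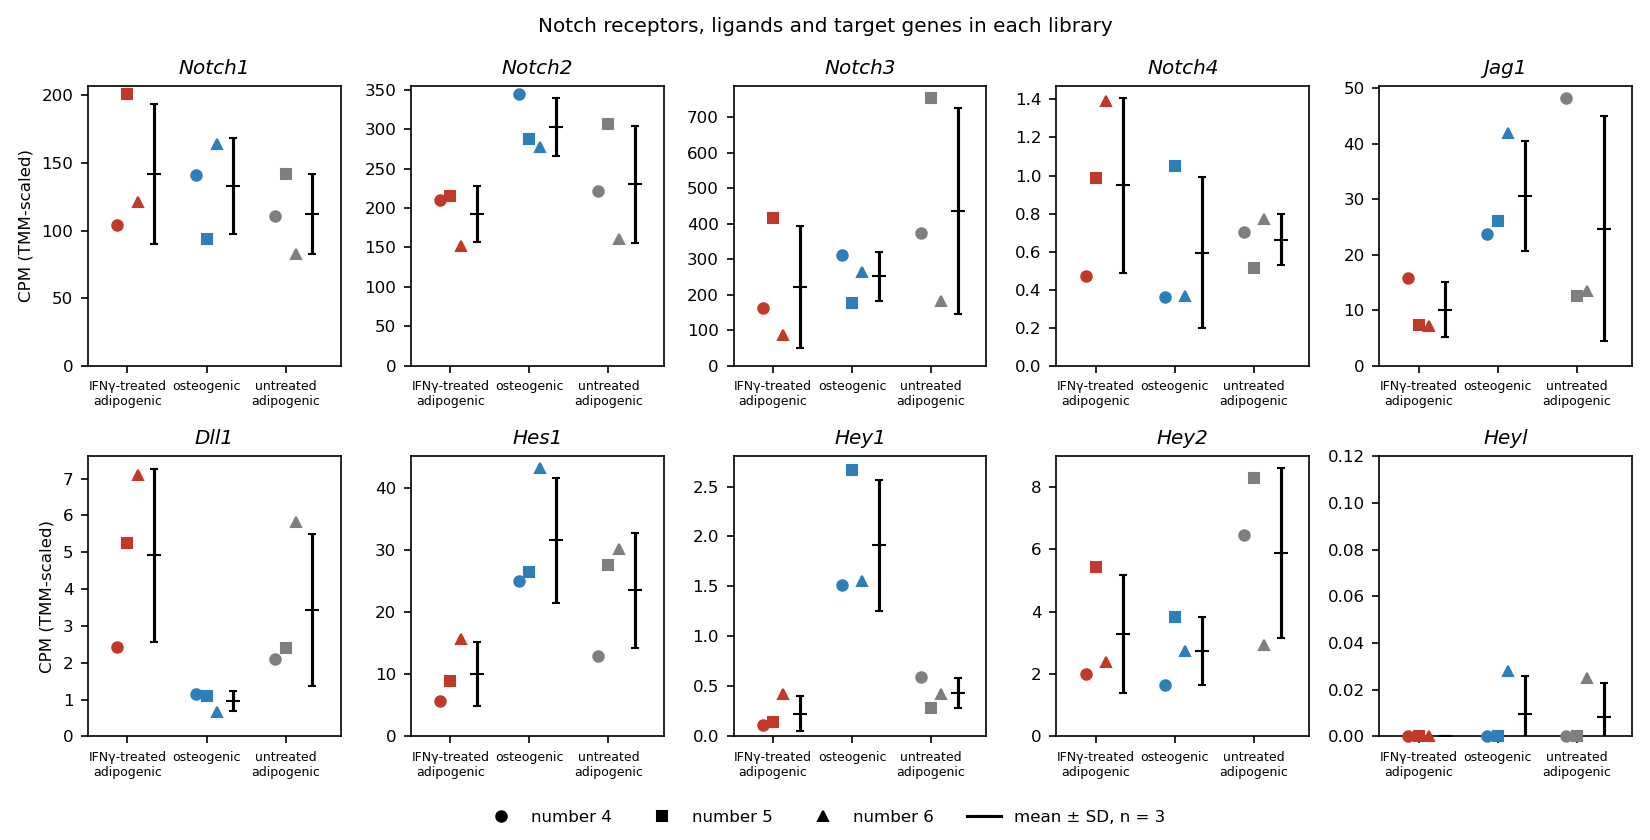
CPM (TMM-scaled) of the 10 genes in each library, with IFNγ-treated adipogenic, osteogenic and untreated adipogenic groups from left to right. Markers give the library number and bars the mean ± SD over 3 libraries. Hey1 is at 1.51 to 2.67 CPM in the osteogenic libraries and at 0.591 or less in all others.

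With same-numbered treated and untreated adipogenic libraries taken as pairs, Notch3, Jag1 and Hes1 were lower with IFNγ in fits that block those pairs, and the remaining members did not pass. In the fit of 9 libraries that blocks the pairs, these calls, like most over all genes, were lost when any pair was left out. A block by number over all 9 libraries kept that of Hes1 alone, but it includes osteogenic libraries, whose numbers did not pair with the others. Without pairing, none of the 9 tested members passed in edgeR (quasi-likelihood test, Benjamini-Hochberg adjusted over 15098 genes, threshold 0.05), where 2.26% of all genes passed. DESeq2 called 0 members and 7.07% of genes, limma-voom called 0 members and 2.64% of genes, and 1 member, Hes1, had an unadjusted p under 0.05 in edgeR. None of the 9 had groups that did not overlap, against 17.4% of all genes. The median log2 fold change of the 9 was -0.84, beside -0.02 over all genes tested.

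Treated and untreated adipogenic libraries with the same number departed together from their group means (across genes, r of 0.769 to 0.779 for the 3 pairs), and were taken as pairs. Of the 9 members, 5 were lower in all 3 pairs and 1 was higher in all 3, where 29.7% and 26.9% of all genes were. With the number as a replicate block and only these 6 libraries, Notch3, Jag1 and Hes1 fell with IFNγ, 3 of 9 members, where 8.02% of the genes tested fell and 16.6% passed in either direction. The same 3 passed as lower when the adipogenic pairs were blocked within the fit of all 9 libraries, a form chosen after the data were seen, where 4.27% of genes fell and 10.8% passed in all. With the number blocked over all 9 libraries, osteogenic ones included, 1 member passed, Hes1 (adjusted p = 0.0384, edgeR), where 0.576% of genes fell and 3.14% passed. Osteogenic libraries did not pair with the adipogenic ones of their number (r of -0.055 to 0.055), so that block does not follow the pairing seen in the data.

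Notch3, the receptor with the most reads, had 162, 415 and 86.8 CPM in IFNγ-treated replicates 4, 5 and 6, against 374, 752 and 183 CPM in untreated replicates 4, 5 and 6. The groups overlapped, with replicate 5 highest and replicate 6 lowest in both, but each treated library was lower than the untreated one of its number. The log2 ratios of the pairs were -1.21, -0.86 and -1.07. The fold change was -0.98 ± 0.64 on the log2 scale without pairing (SE, edgeR adjusted p = 0.574) and -1.06 with the replicate block (adjusted p = 0.00694). It was -1.05 with the block of the pairs in 9 libraries (adjusted p = 0.027). In bulk RNA, fewer cells with a transcript and less of it per cell cannot be told apart. Summed levels of the 10 smooth muscle and pericyte markers were 1172 to 1608 CPM in treated libraries and 2394 to 4607 CPM in untreated ones, with Myh11 and Abcc9 under 1 CPM in both. Acta2 made up most of each sum, at 739 to 1095 CPM in treated and 1592 to 3247 CPM in untreated libraries. In edgeR's fit without pairing, where Notch3 did not pass either, none of the 9 tested markers of that list passed. Each of the 9 was lower in the treated library of every number, where 29.7% of all genes were. Paired tests of these markers are not given here, and their part in the Notch3 result was not tested.

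The other receptors did not pass. Notch1 stood at 104, 201 and 121 CPM in treated libraries, against 111, 142 and 82.5 CPM in untreated ones (log2 fold change 0.35 ± 0.32, edgeR adjusted p = 0.706). Pairs 5 and 6 were higher and pair 4 was not. Notch2 stood at 210.4, 215 and 152 CPM in treated libraries, against 222, 307 and 160.1 CPM in untreated ones (-0.26 ± 0.25, adjusted p = 0.724). Neither passed with the block (adjusted p = 0.231 for Notch1 and 0.227 for Notch2). The 95% interval of the unpaired log2 fold change was -0.38 to 1.07 for Notch1 and -0.82 to 0.31 for Notch2. Notch4, on 16 to 49 counts per treated library and 18 to 31 per untreated one, was at 0.473, 0.987 and 1.39 CPM in treated libraries, against 0.704, 0.512 and 0.774 CPM in untreated ones, and did not pass (0.52 ± 0.55, adjusted p = 0.751).

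Notch3 made up 42.4, 59.8 and 31.8% of the summed receptor level per kilobase in treated replicates 4, 5 and 6, against 61.5, 70.4 and 51.8% in untreated replicates 4, 5 and 6. Its share was thus lower in each pair, while the groups overlapped. The Notch1 share was 15.3, 16.3 and 25.1% in treated libraries, against 10.3, 7.49 and 13.2% in untreated ones, and these groups did not overlap. Osteogenic libraries had 47.7, 39.5 and 46.5% Notch3, 40.2, 48.6 and 37.2% Notch2 and 12.1, 11.7 and 16.2% Notch1. Notch4 held at most 0.517% in any library. The shares are descriptions, since with 3 libraries in each group the smallest p of an exact two-sided permutation test is 0.1.

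**Figure D2:**
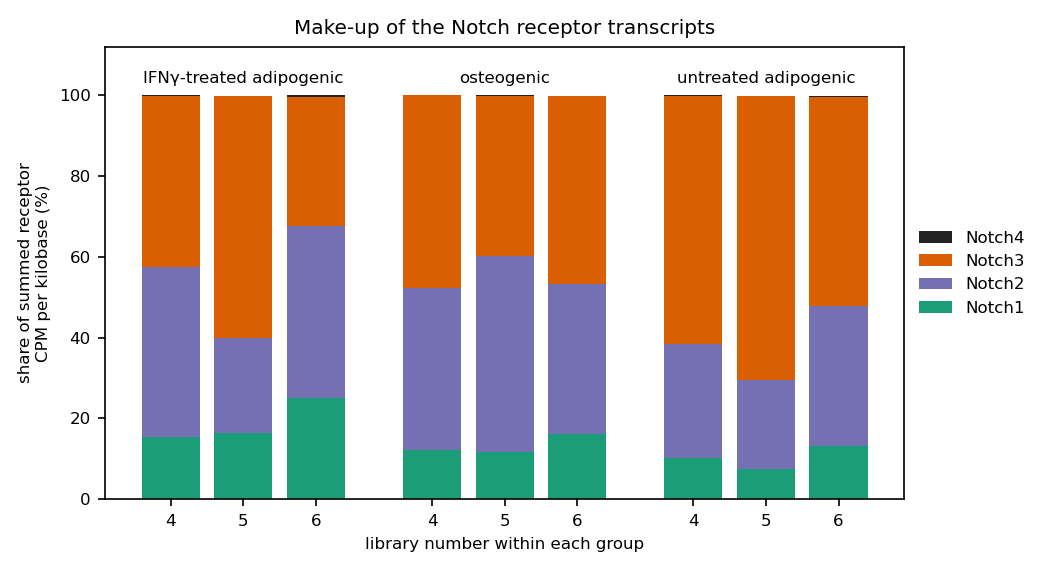
Share of each receptor in the summed CPM per kilobase of the 4 Notch receptors, in percent, for each library (numbers 4, 5 and 6 within IFNγ-treated adipogenic, osteogenic and untreated adipogenic groups). Notch3 takes 51.8 to 70.4% in untreated adipogenic libraries and is lower in the treated library of each number.

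Jag1, a membrane-bound ligand of the Serrate type, had 15.9, 7.39 and 7.13 CPM in treated replicates 4, 5 and 6, against 48.2, 12.6 and 13.4 CPM in untreated ones. Replicate 4 was highest in both groups, which overlapped through it, and each pair was lower with treatment, by log2 ratios of -1.60, -0.77 and -0.91. The fold change was -1.28 ± 0.58 without pairing (edgeR adjusted p = 0.369), -1.12 with the replicate block (adjusted p = 0.0213) and -1.10 with the block of the pairs in 9 libraries (adjusted p = 0.0499). Dll1, a ligand of the Delta type, had 2.42, 5.25 and 7.10 CPM in treated libraries, against 2.11, 2.39 and 5.81 CPM in untreated ones. Every pair was higher, but it did not pass without pairing (0.52 ± 0.52, adjusted p = 0.735) or with the block (adjusted p = 0.195).

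Hes1, the target gene with the highest level, had 5.62, 8.83 and 15.7 CPM in treated replicates 4, 5 and 6, against 12.9, 27.5 and 30.1 CPM in untreated ones. The groups overlapped through treated replicate 6 and untreated replicate 4, and the pairs had log2 ratios of -1.20, -1.64 and -0.94. The fold change was -1.23 ± 0.45 without pairing (edgeR adjusted p = 0.25, unadjusted p = 0.0249), -1.27 with the replicate block (adjusted p = 0.00982) and -1.26 with the block of the pairs in 9 libraries (adjusted p = 0.0272). Hey2 had 2.01, 5.44 and 2.38 CPM in treated libraries, against 6.45, 8.28 and 2.92 CPM in untreated ones. It was lower in each pair and did not pass with the block (-0.87, adjusted p = 0.115). Hey1 rested on 24 counts in the 3 treated libraries and 48 in the untreated ones. It had 0.118, 0.141 and 0.426 CPM in treated libraries, against 0.591, 0.285 and 0.424 CPM in untreated libraries, with pair 6 at the same level, and did not pass (adjusted p = 0.267 with the block).

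The paired calls of Notch3, Jag1 and Hes1 each rested on all 3 pairs. With any pair left out of the fit that blocks the pairs in 9 libraries, none of them passed. Calls over all genes fell as well, from 1631 to 470, 452 and 346 without pair 4, 5 and 6. The losses are thus not particular to Notch3, Jag1 and Hes1. Adjusted p values (edgeR) were then 0.0939 to 0.155 for Notch3, 0.121 to 0.233 for Jag1 and 0.0874 to 0.13 for Hes1, and the log2 fold changes stayed between -1.14 and -0.95, -1.26 and -0.82, and -1.42 and -1.07.

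**Figure D3:**
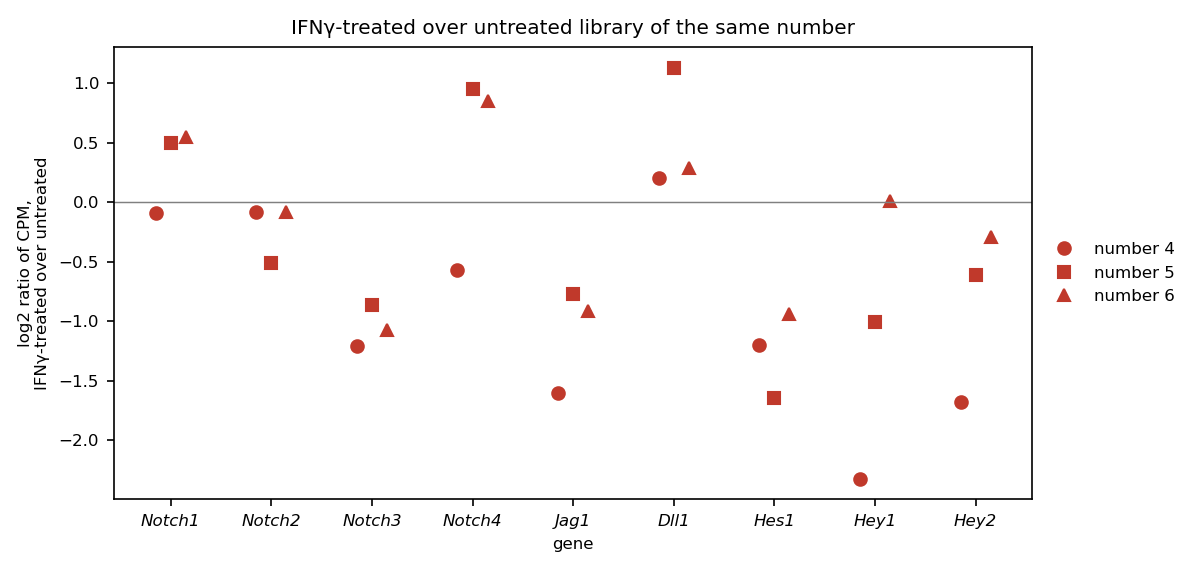
Log2 ratio of CPM in the IFNγ-treated library over the untreated library of the same number, for the 9 tested genes, with 1 point per pair. Notch3, Jag1 and Hes1 lie below 0 in all pairs, at -0.77 or lower, while Notch1, Notch4 and Hey1 have points on both sides.

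Between osteogenic and untreated adipogenic progenitors, none of the 9 members passed edgeR's test, where 5.17% of all genes did. DESeq2 called Hey1 and Dll1, and 14.7% of all genes. Limma-voom called Hey1 and 4.79% of all genes, and 2 members, the same Hey1 and Dll1, had an unadjusted p under 0.05 in edgeR. Those 2 of the 9 were also the only members whose groups did not overlap, a smaller share than the 31.0% of all genes. The median log2 fold change of the 9 was 0.25, beside -0.02 over all genes.

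Hey1 had 1.51, 2.67 and 1.55 CPM in osteogenic replicates 4, 5 and 6, against 0.591, 0.285 and 0.424 CPM in untreated adipogenic ones. These values rested on 176 counts in the osteogenic group and 48 in the untreated one. The log2 fold change was 2.13 ± 0.55 (edgeR adjusted p = 0.062, DESeq2 adjusted p = 0.0069, limma-voom adjusted p = 0.0408). Dll1 went the other way, with 1.15, 1.09 and 0.649 CPM in osteogenic libraries, against 2.11, 2.39 and 5.81 CPM in untreated adipogenic ones (-1.84 ± 0.54, edgeR adjusted p = 0.0932, DESeq2 adjusted p = 0.0147). A long noncoding RNA gene, A930024N18Rik, lies opposite to Dll1 and had at most 11 counts in a library.

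Receptor ranges overlapped between osteogenic and untreated adipogenic libraries. Notch1 stood at 141, 93.5 and 164 CPM in osteogenic libraries, against 111, 142 and 82.5 CPM in untreated adipogenic ones (0.25 ± 0.32, edgeR adjusted p = 0.681). Notch2 stood at 345, 287 and 277 CPM in osteogenic libraries, against 222, 307 and 160.1 CPM in untreated adipogenic ones (0.40 ± 0.25, adjusted p = 0.372). Notch3 stood at 313, 178 and 265 CPM in osteogenic libraries, against 374, 752 and 183 CPM in untreated adipogenic libraries (-0.79 ± 0.64, adjusted p = 0.498). The 95% intervals of these log2 fold changes, -0.48 to 0.98, -0.17 to 0.96 and -2.26 to 0.68, leave room for differences in either direction. Notch4 was at 0.363, 1.05 and 0.367 CPM in osteogenic libraries (adjusted p = 0.886).

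Jag1 had 23.7, 26.0 and 42.0 CPM in osteogenic libraries, all between the lowest and the highest untreated adipogenic one (0.31 ± 0.57, edgeR adjusted p = 0.791). Hes1 had 25.0, 26.4 and 43.1 CPM in osteogenic libraries, against 12.9, 27.5 and 30.1 CPM in untreated adipogenic ones (0.42 ± 0.44, adjusted p = 0.61). Hey2 had 1.66, 3.84 and 2.74 CPM in osteogenic libraries, against 6.45, 8.28 and 2.92 CPM in untreated adipogenic ones (-1.10 ± 0.53, adjusted p = 0.258). Its untreated replicate 6 lay within the osteogenic range.

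Dll1 was higher, and Hes1 and Hey1 were lower, in IFNγ-treated adipogenic than in osteogenic progenitors. This comparison also tests whether the differences of these groups from the shared untreated libraries differ from each other. The 3 genes were 3 of 9 members tested, where 16.7% of all genes passed, 9.20% as higher and 7.52% as lower. Groups did not overlap for 5 of the 9, namely Dll1, Notch2, Jag1, Hes1 and Hey1, against 38.5% of all genes. The median log2 fold change of the 9 was -0.19, beside 0.03 over all genes.

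Hey1 showed the largest difference of the 9, with 0.118, 0.141 and 0.426 CPM in treated adipogenic libraries, against 1.51, 2.67 and 1.55 CPM in osteogenic ones. The log2 fold change was -3.04 ± 0.57 (edgeR adjusted p = 0.0102), and it passed in all 6 fits with 1 library left out (adjusted p at most 0.0387). Its difference from untreated adipogenic libraries was -0.91 ± 0.56 with IFNγ and 2.13 ± 0.55 in osteogenic ones. Hes1 had 5.62, 8.83 and 15.7 CPM in treated adipogenic libraries, against 25.0, 26.4 and 43.1 CPM in osteogenic ones (-1.65 ± 0.45, adjusted p = 0.0416). Dll1 had 2.42, 5.25 and 7.10 CPM in treated adipogenic libraries, against 1.15, 1.09 and 0.649 CPM in osteogenic ones (2.35 ± 0.55, adjusted p = 0.0238). Summed bone-forming cell markers stood at 52.7 to 76.9 CPM in treated libraries, with Sp7, Ibsp, Bglap and Dmp1 under 1 CPM, and at 447 to 779.6 CPM in osteogenic ones, and all 6 passed as lower. Smooth muscle and pericyte markers summed to 1172 to 1608 CPM in treated libraries and to 6732 to 17605 CPM in osteogenic ones. Acta2 made up most of each sum, and 4 of the 9 markers tested passed as lower. Of 5 endothelial markers tested, Kdr and Vwf passed as higher and Erg as lower in treated libraries. The part of these lists in the results was not tested.

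The calls of Dll1 and Hes1 each held in 1 of 6 fits with 1 library left out. In those fits calls over all genes fell as well, from 2525 to between 1312 and 1979. The log2 fold changes stayed at 2.01 to 2.69 for Dll1 and -2.11 to -1.35 for Hes1. Dll1 kept its call without treated replicate 4 (adjusted p = 0.018, edgeR) and lost it without treated replicate 5 or 6 or osteogenic replicate 4, 5 or 6 (up to 0.0845). Hes1 kept its call without treated replicate 6 (0.034) and lost it without treated replicate 4 or 5 or osteogenic replicate 4, 5 or 6 (up to 0.127), and also with no filter beyond 1 count (0.0513).

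Jag1 had 15.9, 7.39 and 7.13 CPM in treated adipogenic libraries, against 23.7, 26.0 and 42.0 CPM in osteogenic ones (-1.59 ± 0.58, edgeR adjusted p = 0.102). It passed with DESeq2 (0.0235), which called 25.4% of all genes, and with only the 6 libraries compared (0.0405). Notch2 had 210.4, 215 and 152 CPM in treated adipogenic libraries, against 345, 287 and 277 CPM in osteogenic ones (-0.65 ± 0.25, adjusted p = 0.11). The ranges of Notch1 (0.10 ± 0.32, adjusted p = 0.871), Notch3 (-0.19 ± 0.64, 0.873), Notch4 (0.69 ± 0.55, 0.438) and Hey2 (0.26 ± 0.53, 0.784) overlapped between these groups, and none of these 4 passed.

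**Figure D4:**
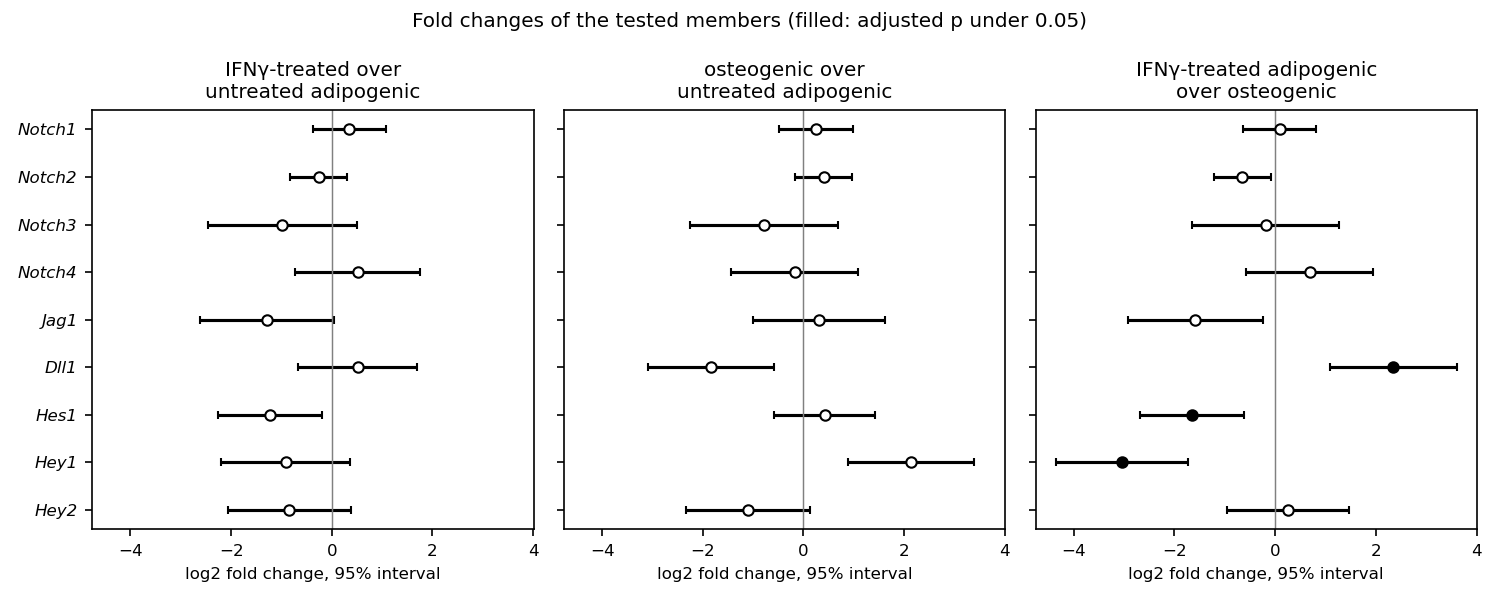
Log2 fold changes of the 9 tested genes with 95% intervals, from edgeR's fit without pairing, for each comparison. Filled points passed an adjusted p of 0.05. Only Dll1 (2.35), Hes1 (-1.65) and Hey1 (-3.04) are filled, all in IFNγ-treated adipogenic over osteogenic libraries.

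Beyond these 10, a list of 53 other genes of the pathway covered further ligands, cleavage enzymes, glycosyltransferases, turnover factors, the nuclear complex, corepressors and further targets. The list was set up with earlier results of these data known. Of these, 52 were in the table and 46 were tested. In the fit without pairing, 1 rose and none fell with IFNγ. With the replicate block over the 6 adipogenic libraries, 2 of 44 tested pathway genes rose and 5 fell, where 16.6% of all genes passed. Kat2b and the furin gene Furin were those that rose. Jag2, Fbxw7, Maml3, Tle1 and Hes6 fell, with adjusted p values (edgeR) of 0.00618 to 0.0482. Apart from Kat2b and Jag2, these were named after their values were seen. The block of the pairs in 9 libraries called Kat2b as higher and Tle1 and Hes6 as lower, where 10.8% of all genes passed in either direction. Again without pairing, in osteogenic against untreated adipogenic libraries 2 rose and none fell, and in treated adipogenic against osteogenic libraries 2 were higher and 3 lower. The shares of all genes passing without pairing were 2.26, 5.17 and 16.7%. None of the 10 cleavage genes, which include the ADAM proteases and the γ-secretase subunits, or of the 4 genes of ligand ubiquitination passed in any comparison of the fit without pairing.

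Kat2b, which codes for a histone acetyltransferase that acts with the Notch nuclear complex, rose to 90.4, 115 and 104 CPM in treated libraries, against 36.2, 35.9 and 51.0 CPM in untreated ones (1.33 ± 0.20, edgeR adjusted p = 0.0128). The groups did not overlap. Leaving out untreated replicate 4, untreated replicate 5 or treated replicate 6 ended the call (adjusted p up to 0.0657). With 1 library left out, calls over all genes fell from 341 to between 194 and 278. Kat2b was also higher in treated adipogenic than in osteogenic libraries, as follows. Osteogenic libraries had 28.7, 41.3 and 29.6 CPM of Kat2b (1.63 ± 0.21 for treated adipogenic over osteogenic, edgeR adjusted p = 0.00192).

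Lfng, the fringe glycosyltransferase that changes which ligands a receptor answers to, had 62.1, 63.8 and 38.6 CPM in osteogenic libraries, against 8.70, 10.9 and 21.6 CPM in untreated adipogenic ones (2.00 ± 0.40, edgeR adjusted p = 0.0326). That call held in 1 of 6 fits with 1 library left out, without untreated replicate 6, and was lost without untreated replicate 4 or 5 or any osteogenic one (up to 0.106) and with only the 6 libraries compared (0.0521). In treated adipogenic libraries Lfng had 6.80, 9.19 and 13.2 CPM, lower than in osteogenic ones (-2.50 ± 0.41, adjusted p = 0.00591), and this call held in all 6 such fits (at most 0.0248). Numbl, a relative of the Notch inhibitor Numb, rose to 76.5, 83.8 and 74.0 CPM in osteogenic libraries, against 45.2, 47.5 and 46.6 CPM in untreated adipogenic ones (0.75 ± 0.14, adjusted p = 0.0257). It lost that call with any of the 6 libraries left out (0.0589 to 0.105). In this comparison, calls over all genes fell from 780 to between 159 and 475 with 1 library left out. Against osteogenic libraries, the treated adipogenic ones were lower in Numbl (-0.82 ± 0.14, adjusted p = 0.007) and in the Mastermind coactivator gene Maml3 (-1.33 ± 0.22, adjusted p = 0.00571), both in all 6 fits with 1 library left out. They were higher in the corepressor gene Tle4 (0.96 ± 0.24, adjusted p = 0.0295). Tle4 kept its call only without osteogenic replicate 5 and lost it without osteogenic replicate 4 or 6 or any treated one (up to 0.0722). Calls over all genes fell from 2525 to between 1312 and 1979 in those fits.

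Rbpj, the DNA-binding partner of all Notch receptors, stood at 50.7, 44.6 and 23.2 CPM in treated adipogenic, 57.8, 51.4 and 35.7 CPM in osteogenic and 42.7, 45.3 and 19.8 CPM in untreated adipogenic libraries, and passed in no comparison (edgeR adjusted p = 0.93 with IFNγ, 0.545 in osteogenic against untreated adipogenic libraries and 0.654 in treated adipogenic against osteogenic ones). Numb averaged 35.7 ± 2.40, 33.8 ± 3.65 and 32.5 ± 6.02 CPM in the same order of groups and passed in none. The target gene Nrarp was under 1 CPM in every library. The ligand gene Dll4 had 13 counts in all libraries and was not tested. Dlk1, which codes for a Delta-like protein without the usual receptor-binding domain, was at 0.0564 to 0.0887 CPM in treated adipogenic, 0.332 to 2.78 CPM in osteogenic and 0.0285 to 1.72 CPM in untreated adipogenic libraries, and passed in none.

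**Figure D5:**
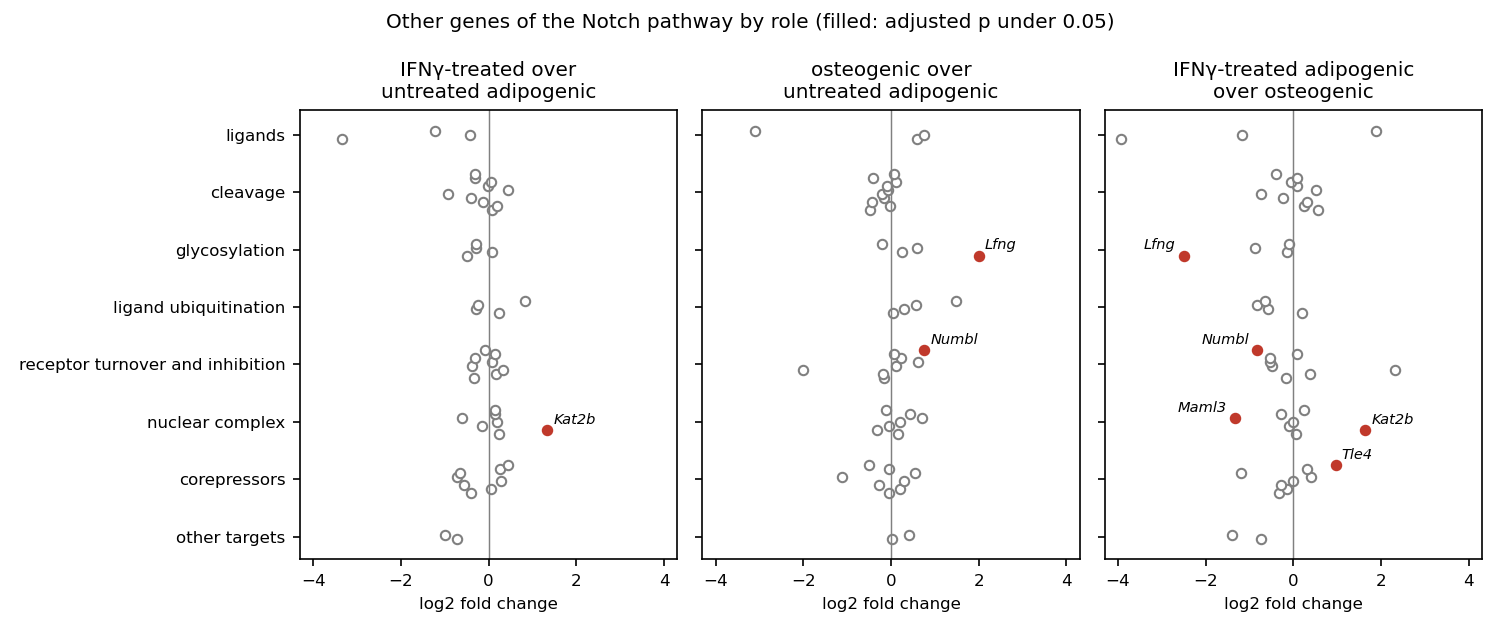
Log2 fold changes of the 46 tested other genes of the Notch pathway, by role, for each comparison, from edgeR's fit without pairing. Filled points passed an adjusted p of 0.05 and are named. Kat2b is filled in both comparisons that include IFNγ-treated libraries, and Lfng and Numbl in both that include osteogenic ones.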

How the data were processed

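The authors deposited whole-number read counts per Ensembl gene, not normalized, in 1 column per library, and gave each gene's exonic length and exon number as other values. Mouse build mm9, bedtools 2.11 and CASAVA 1.8.0 appear in the submitters' processing notes. How reads were aligned and counted, and whether by strand, is not given in the sources used here. Antisense genes overlap Notch1 (0610009E02Rik, at most 25 counts, and Gm13568), Dll1 and others, so such reads cannot be assigned with certainty.

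The analysis used edgeR 4.0.16 in R 4.3.3. After filterByExpr, which kept 15098 genes, and TMM scaling, a robust quasi-likelihood model by group was fitted over the 9 libraries. Tests were two-sided with Benjamini-Hochberg adjustment over all genes kept. The SE is the log2 fold change over the square root of F. Levels per kilobase use the deposited exonic length. Groups came from the titles and the series design. No library pair of a group agreed within sampling noise. Counting floors cover counting error only.

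Same-numbered treated and untreated adipogenic libraries paired by the data (correlations 0.778, 0.769 and 0.779), not by a stated origin. Osteogenic numbers did not. Alternatives were DESeq2 1.42.0, limma-voom (limma 3.58.1), DESeq2-type and upper-quartile scaling, no filter, fewer libraries, replicate blocks and leaving out libraries. Only the edgeR fit without pairing was tested on simulated data, for the comparison of IFNγ-treated with untreated adipogenic libraries. Those data held no effect of the library number, and the blocked fits and other alternatives were not tested in this way. Hes5 and the endothelial marker Sox17 were not matched, and are not analysed here. Members and lists were chosen with earlier results of these data known. All 10 members were named. Other pathway genes were named if among the 5 smallest adjusted p values past 0.05 with a mean of at least 1 CPM, or listed by name (Irf1 and Sp7 as checks of the labels, and Rbpj, Dlk1, Jag2, Dll4, Nrarp, Lfng, Numb).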

Additional observations from a re-analysis of the deposited data

How the results depend on the processing

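With IFNγ against untreated, 341 genes passed in edgeR. DESeq2 called 1068, a fit of only the 6 libraries 178, the replicate block in those 6 libraries 2446 and the block of the adipogenic pairs in 9 libraries (chosen after seeing the data) 1631. These blocks called 3 members each, with 7 other pathway genes in 6 libraries and 3 in 9, and the replicate block over all 9 libraries called 1 member, against 0 members and 1 pathway gene without a block. Leaving out 1 library gave 0 members, 194 to 278 genes and 0 to 1 pathway genes. In osteogenic against untreated libraries, where 780 genes, 0 members and 2 pathway genes passed, DESeq2 called 2226 genes, 2 members and 4 pathway genes, and limma-voom 1 member. A fit of only the 6 libraries called 1 pathway gene, the replicate block over all 9 libraries 1244 genes, and the block in 6 libraries 23 genes and 0 pathway genes. Leaving out 1 library gave 159 to 475 genes and 0 to 1 pathway genes. In treated adipogenic against osteogenic libraries, where 2525 genes, 3 members and 5 pathway genes passed, DESeq2 called 3830 genes and 12 pathway genes, and upper-quartile scaling 8 pathway genes. The replicate block over all 9 libraries called 5 members. Its count over all genes is not given here, so these 5 cannot be set against a share. The block in 6 libraries called 1 member, Hes1, and 1257 genes. Osteogenic numbers did not pair with the others (correlations of -0.055 to 0.055), so these blocks say nothing of a weaker or stronger difference. Leaving out 1 library gave 1 to 2 members, 1312 to 1979 genes and 4 to 5 pathway genes. The sign of log2 fold changes that did not pass turned for some single libraries left out. With IFNγ, Notch1 ran from -0.01 to 0.55 and Notch2 from -0.46 to 0.01. In osteogenic against untreated libraries, Jag1 ran from -0.01 to 1.23 and Notch4 from -0.85 to 0.09. In treated adipogenic against osteogenic libraries, Notch1 ran from -0.26 to 0.30, Notch3 from -1.04 to 0.21 and Hey2 from -0.33 to 0.59. Over all members and alternatives, 376 values kept direction and side of the threshold, 13 lost and 14 gained a call, and 11 turned sign. Fewer libraries enter the fits that leave some out; for the other changes the cause was not tested. The members with the fewest reads over all libraries were Heyl with 2, Notch4 with 227 and Hey1 with 248.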

Other observations

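Some pathway genes were high in the adipogenic libraries of a single number, with or without IFNγ. Jag2, a Serrate-type ligand, had 1.45, 32.6 and 1.53 CPM in treated replicates 4, 5 and 6, 6.17, 1.20 and 2.20 CPM in osteogenic ones, and 2.79, 76.6 and 3.69 CPM in untreated ones. Replicate 5, with the most Jag2, also had the most Notch3 in both adipogenic groups. Dtx4, a Deltex family gene named after its values were seen, had 57.7, 7.02 and 14.6 CPM in treated replicates 4, 5 and 6, against 45.9, 5.86 and 11.9 CPM in untreated ones, so that replicate 4 was highest in both. Replicate 4 also had the most Jag1 in both groups, and replicate 6 had the most Dll1 and Hes1.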
